A study of Mus musculus with 24 samples.

Results

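The genes described here are 31 mouse genes of the lysosome, among 16604 genes measured. They were taken by name and fall into 4 groups by role: 7 membrane proteins and cargo (Gpnmb, Lamp1, Lamp2, Cd63, Npc1, Mcoln1, Sqstm1), 15 luminal hydrolases and their helper proteins, 6 subunits of the proton pump (V-ATPase), and the 3 MiT transcription factors Tfeb, Tfe3 and Mitf. All 31 are in the expression table, and 30 were abundant enough to be tested. Mitf was not, since it lay between 0.16 and 0.41 FPKM in all 24 libraries. Measured values were used in naming the set, but which values is not stated. Earlier results of SB431542 and of SR9011 against vehicle had Gpnmb among the largest rises. Those 2 comparisons, and the interactions built on them, are therefore treated as used, and the results describe them with no test. In the closing sections, counts of genes past the threshold are listed for these interactions, and nothing is read from them. It is not known whether the other comparisons were in view too.

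RNA was sequenced from EMS404, an SV40-immortalized hepatic stellate cell line from the liver of a C57Bl6 mouse that expresses human TLR4, which all groups share. The 24 libraries form 8 groups of 3 biological samples: vehicle, TGFb, 3 compounds given alone, and the same compounds with TGFb (SB431542+TGFb, SR9011+TGFb and CLK8+TGFb). SB431542 blocks the receptor of TGFb, SR9011 activates the clock repressor REV-ERB alpha, and CLK8 disrupts the CLOCK:BMAL1 dimer of the clock. In the library names the vehicle and TGFb groups are labelled DMSO, while the sample titles call the vehicle group untreated. Compounds were given for 24 h, and then for 24 h together with TGFb at 10 ng/mL. The sources used here give no compound doses and do not say how long groups without TGFb were cultured, so TGFb and time in culture cannot be told apart. All groups come from 1 line, and the p-values measure the spread between the samples of that line. Values are FPKM, which are scaled for gene length and library size, so that levels of different genes can be set side by side. Read totals are unknown. Changes are log2 differences of FPKM + 1, which understate changes of genes near 1 FPKM. A gene is called where the limma p, adjusted by Benjamini-Hochberg over 11297 genes, was under 0.05. The comparisons against vehicle share the 3 vehicle libraries, and those against TGFb share the 3 TGFb libraries. TGFb and CLK8 against vehicle, and the interaction with CLK8, thus use vehicle libraries that also enter the comparisons treated as used. Their p-values are not independent of the naming of the set.

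As to what the cells are, 13 of 14 stellate cell markers were in the table, all but Lrat. Their summed level was 1826 to 2227 FPKM with SR9011 and 2990 to 3188 FPKM with SR9011+TGFb, against 4254 to 6371 FPKM in the other groups. Most of the sum came from Col1a1 (342 to 2617 FPKM over all libraries), Col1a2 (406 to 2065), Dcn (254 to 1626) and Vim (465 to 911). Pdgfrb (9.92 to 39.9 FPKM), Pdgfra (15.2 to 97), Hand2 (23.4 to 97.6) and Lhx2 (8.3 to 13) were present at lower levels. Des did not exceed 0.39 FPKM in any library, and Reln was listed at 0 in all. Lum (0.02 to 1.26 FPKM) was at 1 FPKM or more in 4 libraries. Of the 13 macrophage markers 9 were in the table, of which Cd14 (3.94 to 10.3 FPKM) and Cd74 (7.15 to 25.4 FPKM) were at 1 FPKM or more in all 24 libraries and Mpeg1 (0.04 to 2.42 FPKM) in 3. The defining markers Ptprc and Itgam did not exceed 0.02 FPKM, and the other 4 (Csf1r, Lyz2, Fcer1g and Aif1) did not exceed 0.57 FPKM. In bulk RNA, fewer cells of a type and less RNA per cell cannot be told apart.

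Lysosomes are acidic organelles in which hydrolases digest material brought in by endocytosis and autophagy. The V-ATPase pumps in the protons, heavily glycosylated membrane proteins such as LAMP1 and LAMP2 line the organelle, and channels and transporters carry ions and lipids out. The MiT factors TFEB, TFE3 and MITF bind E-box sequences in the promoters of many of these genes when they enter the nucleus, which is governed largely by nutrient signals at the lysosome surface. GPNMB is a transmembrane glycoprotein of lysosomes and melanosomes, known as a target of MiT factors and as a marker of cells under lysosomal stress. In stellate cells, lysosomes and autophagy have been linked to the loss of lipid droplets on activation.

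The letters CACGTG are the core of the E-box that MiT factors bind, and CLOCK:BMAL1 is known to bind the same core. They read the same on both strands. RefSeq promoters (GRCm38.p6, 250 bases before to 50 after the start) were available for 27 of the 31 genes; Npc1, Asah1, Atp6v1b2 and Atp6v1h were not matched. CACGTG stood in a promoter of 9 of those 27 genes (33.3%), namely Lamp1, Mcoln1, Gaa, Gla, Glb1, Naglu, Sgsh, Atp6v0d1 and Atp6v1a. It stood in 12% of the promoters of 8993 tested genes and in 8.09% of all 27025 genes of the promoter table. The following 100-base stretches, 5′ to 3′ on the gene's strand, show the promoter with the most such matches (Lamp1), one with a pair of matches (Gla), promoters with a single match from the hydrolases (Glb1, Sgsh) and the pump (Atp6v0d1), and the promoter of Gpnmb, which has none. Capitals mark CACGTG.
Lamp1, chr8:13159061-13159160, plus strand: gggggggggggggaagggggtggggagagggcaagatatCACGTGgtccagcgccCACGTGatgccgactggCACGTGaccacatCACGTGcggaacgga
Gla, chrX:134601156-134601255, minus strand: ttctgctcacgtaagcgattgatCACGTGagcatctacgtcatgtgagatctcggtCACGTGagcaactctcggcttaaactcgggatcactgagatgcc
Glb1, chr9:114400978-114401077, plus strand: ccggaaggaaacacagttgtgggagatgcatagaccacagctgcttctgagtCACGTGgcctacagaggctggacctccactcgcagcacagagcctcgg
Sgsh, chr11:119355534-119355633, minus strand: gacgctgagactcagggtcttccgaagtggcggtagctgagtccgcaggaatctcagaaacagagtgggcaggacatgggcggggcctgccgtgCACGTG
Atp6v0d1, chr8:105566062-105566161, minus strand: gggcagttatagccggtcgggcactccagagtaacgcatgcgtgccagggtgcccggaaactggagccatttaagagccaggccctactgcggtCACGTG
Gpnmb, chr6:49036418-49036517, plus strand: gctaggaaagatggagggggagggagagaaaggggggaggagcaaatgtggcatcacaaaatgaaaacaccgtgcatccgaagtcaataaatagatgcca

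The longer form TCACGTGA, which contains CACGTG, stood in 4 of the 27 genes (14.8%) and in 2.34% of tested genes. The palindrome that extends this form by G at the start and C at the end stood in 0 of the 27 and in 0.834% of tested genes. The related core CATGTG, searched on both strands, stood in 5 of the 27 genes (18.5%) and in 9.74% of tested genes. Its longer form TCATGTGA, which contains CATGTG, stood in Gla, Grn, Tpp1 and Ppt1 (14.8%) and in 0.878% of tested genes. A match is a description of the letters in these windows and says nothing of binding in these cells.

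TGFb lowered most of the lysosomal genes, and each compound given with TGFb left most of them above the level with TGFb alone. Against vehicle, TGFb lowered 26 of the 30 tested genes, where 34.4% of all tested genes were lower, and raised 0, where 20.5% of all were higher. Their median log2 change was -0.35, and that of all tested genes was -0.05. CLK8 alone raised 26 of the 30 (30.3% of all genes higher) and lowered 2 (13.6% of all lower), with a median of 0.48 against 0.06 for all genes. Against TGFb, SB431542+TGFb raised 27 (38.3% of all higher) with a median of 0.57 against 0.07. SR9011+TGFb raised 29 (36.8% of all higher) with a median of 0.99 against 0.05. CLK8+TGFb raised 27 (27.7% of all higher) and lowered 1 (13.3% of all lower), with a median of 0.45 against 0.05. SB431542+TGFb and SR9011+TGFb lowered 0 of the 30, where 21.4% and 24% of all genes were lower. Each of the counts of 0 by limma in this paragraph was also 0 at an unadjusted p under 0.05.

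The direction of the whole-transcriptome calls moved with the scaling, while the medians of the lysosomal genes kept their sign. The share of all calls that were higher for TGFb against vehicle was 37.3%, and it was 51% after rescaling to TPM and 49.7% after quantile normalization. For CLK8 that share was 69.1%, 69.2% and 52.1% in the same order, for SB431542+TGFb 64.2%, 57.8% and 49%, for SR9011+TGFb 60.5%, 45.8% and 48.7%, and for CLK8+TGFb 67.5%, 76.1% and 49.6%. The lysosomal median for TGFb against vehicle was -0.29 with TPM and -0.28 with quantile normalization, and that for SR9011+TGFb was 0.91 and 0.97.

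**Figure D1:**
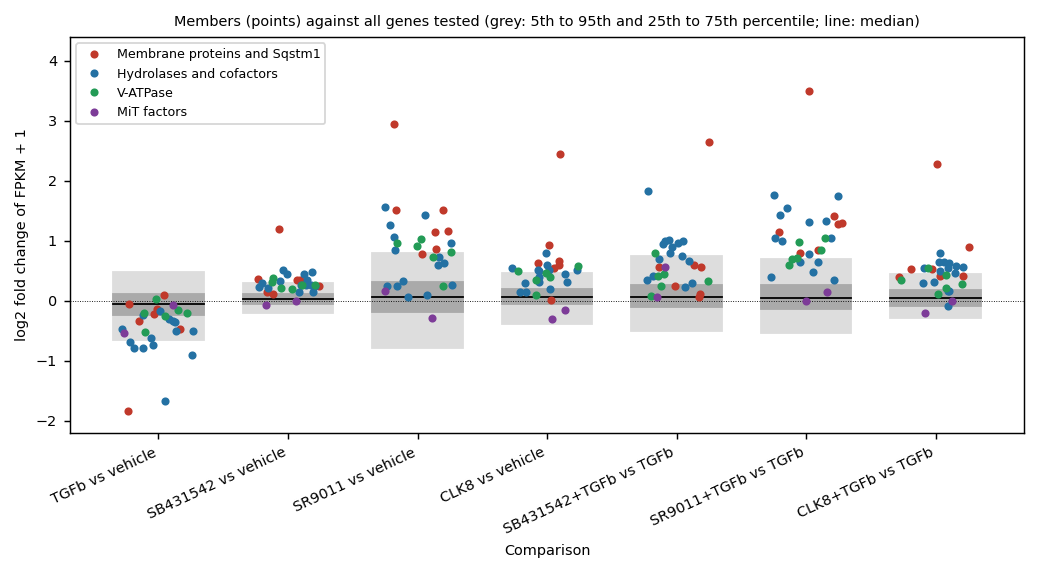
Each point is 1 of the 30 tested genes, coloured by role, at its fitted log2 change of FPKM + 1 (y axis) in each of 7 comparisons (x axis); sideways spread within a comparison is for visibility only. Grey bands give the 5th to 95th and 25th to 75th percentiles of all 11297 tested genes and the black line their median; with SR9011+TGFb against TGFb, 21 of the 30 points lie above the 95th percentile, and with TGFb against vehicle 7 lie below the 5th.

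SB431542 alone and SR9011 alone, which are treated as used in naming the set, gave the following values. With SB431542 against vehicle, the fitted changes of the 30 genes ran from -0.07 to 1.19 with a median of 0.27. With SR9011 against vehicle, they ran from -0.28 to 2.94 with a median of 0.83.

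Gpnmb (ENSMUSG00000029816, mm10 chromosome 6, 49036546 to 49070929, plus strand, protein coding) had the widest range of the set on the log2 scale. It stood at 5.15, 5.90 and 4.70 FPKM in the vehicle libraries and at 0.70, 0.76 and 0.81 FPKM with TGFb. With SB431542 it stood at 13.47, 11.87 and 14.29 FPKM, with SR9011 at 45.00, 41.62 and 55.27 FPKM, and with CLK8 at 35.06, 30.53 and 33.73 FPKM. With TGFb added to the compounds it stood at 10.88, 8.69 and 10.28 FPKM (SB431542), 19.55, 18.02 and 18.52 FPKM (SR9011) and 9.26, 6.43 and 7.20 FPKM (CLK8). The 3 TGFb libraries lay below all others, and all 6 groups with a compound lay above vehicle without overlap. In descending order of mean level the groups were SR9011, CLK8, SR9011+TGFb, SB431542, SB431542+TGFb, CLK8+TGFb, vehicle and TGFb. Among neighbours in that order, only SB431542+TGFb and CLK8+TGFb overlapped.

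Gpnmb fell by 1.83 on the log2 scale with TGFb (SE 0.108, limma adjusted p = 2.26e-12). It rose with CLK8 by 2.45 (SE 0.108, limma adjusted p = 1.1e-13), and this was the 3rd largest change from the top among 11297 genes. Against TGFb it rose by 2.64 with SB431542+TGFb, by 3.49 with SR9011+TGFb and by 2.28 with CLK8+TGFb (SE 0.108 each, limma adjusted p = 2.86e-15, 3.72e-17 and 5.46e-13). The rise with CLK8+TGFb was the largest of all genes tested, that with SR9011+TGFb was number 2 and that with SB431542+TGFb number 4. Gpnmb was named with its large rises with SB431542 and SR9011 alone in view. These ranks and p-values are therefore not independent of the naming and only describe the gene. The ranks are on the scale of FPKM + 1. Since Gpnmb is under 1 FPKM with TGFb, its changes depend on the pseudocount: with 0.1 in place of 1 they were -2.64 for TGFb and 3.55, 4.46 and 3.16 for the 3 compounds with TGFb. The fitted change was 1.19 with SB431542 alone and 2.94 with SR9011 alone.

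Other cells known for high GPNMB are macrophages, osteoclasts and melanocytes. The summed macrophage list was 19.5 to 20.8 FPKM with vehicle, 13.9 to 15.6 with TGFb, 23.2 to 29.4 with SR9011 and 33.4 to 36.9 with CLK8, made mostly by Cd14 and Cd74. Gpnmb and this sum were both lower with TGFb than with vehicle and higher with CLK8, and the part of these genes in the Gpnmb result was not tested. The sum was 19.6 to 21.5 FPKM with SB431542+TGFb and 22.7 to 26.2 with CLK8+TGFb, both above TGFb without overlap, as Gpnmb was. With SR9011+TGFb it was 12.9 to 16.4 FPKM, which overlaps that with TGFb, while Gpnmb did not overlap. The osteoclast list summed to 1.08 to 1.84 FPKM with vehicle and to 3.65 to 4.70 FPKM across the groups with SR9011. In this list Ctsk ran from 0.90 to 4.65 FPKM over all libraries and was at 1 FPKM or more in 21, while Acp5 did not exceed 0.29 FPKM. The part of these genes was not tested either. The melanocyte list summed to at most 0.73 FPKM, and Sox10 did not exceed 0.01 FPKM.

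**Figure D2:**
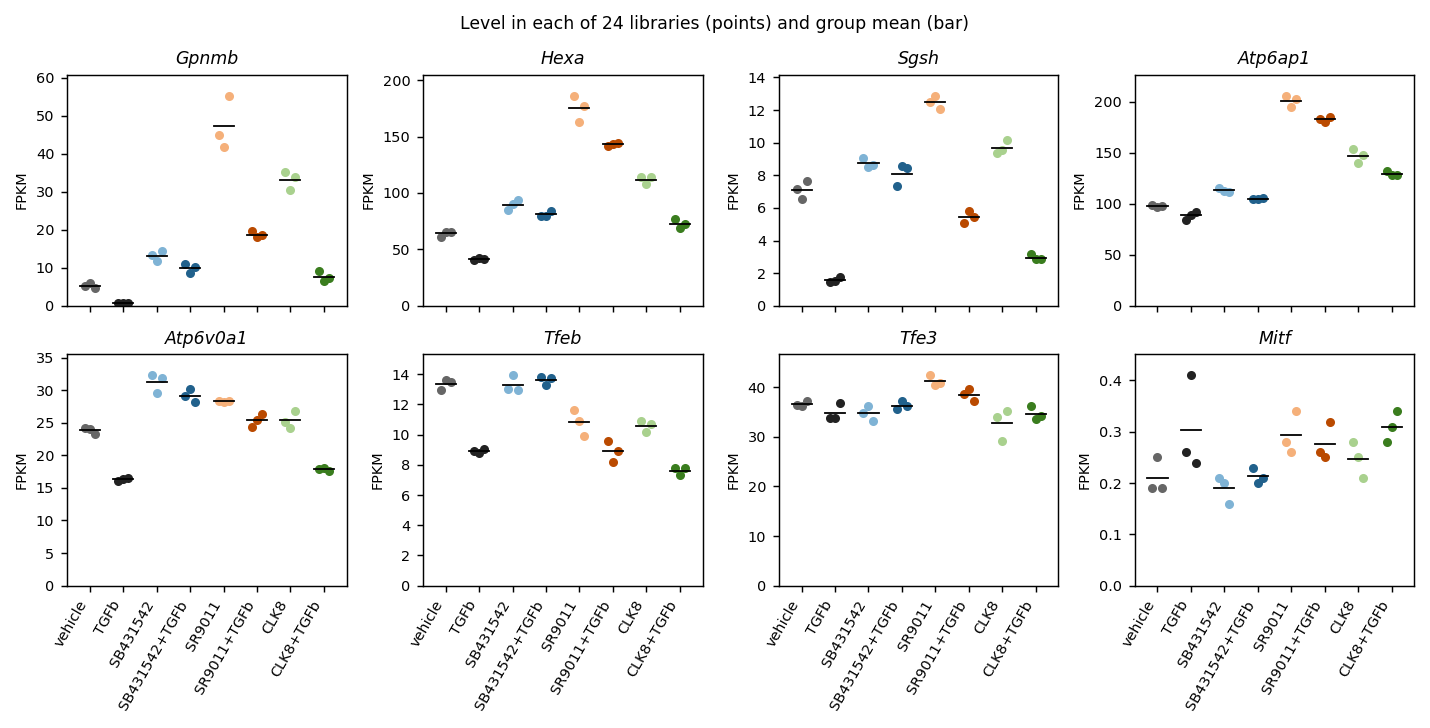
FPKM (y axis, from 0, a scale for each gene) of the 8 genes given library by library, in the 8 groups (x axis); points are libraries and bars are group means, n = 3. Gpnmb nearly reaches 0 with TGFb, and Sgsh is lowest with TGFb, at 1.43 to 1.74 FPKM. Hexa and Atp6ap1 are highest with SR9011, Tfe3 stays within 29.11 to 42.42 FPKM in all libraries, and Mitf is at most 0.41 FPKM.

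The other 6 membrane proteins and cargo moved less than Gpnmb. With TGFb against vehicle, 5 of the 7 genes of this role were lower and 2 were not called, Cd63 (0.09, limma adjusted p = 0.26) and Npc1 (-0.05, limma adjusted p = 0.324). Cd63 is a tetraspanin of late endosomes and lysosomes, and it was called higher (0.16) when values were rescaled to TPM and (0.15) after quantile normalization. Lamp2 fell by 0.47 and Lamp1 by 0.34, both heavily glycosylated proteins that line the organelle. Sqstm1, the autophagy receptor p62, had a change of -0.14 at the threshold (limma adjusted p = 0.0491), and the call was lost without vehicle replicate 2 (-0.12), vehicle replicate 3 (-0.14), TGFb replicate 1 (-0.10) or TGFb replicate 2 (-0.15), and with no filter (-0.14), TPM (-0.07) or quantile normalization (-0.06).

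Mcoln1, the lysosomal calcium channel TRPML1, was 26.8 FPKM with vehicle, 22.9 with TGFb, 52.2 with CLK8 and 63.0 with SR9011+TGFb. It rose by 0.93 with CLK8 and, against TGFb, by 0.56 with SB431542+TGFb, 1.42 with SR9011+TGFb and 0.89 with CLK8+TGFb. After Gpnmb it was the membrane gene with the largest rise in each of the comparisons with SR9011 or CLK8 that were tested. Lamp1, at 219 FPKM with TGFb, rose to 535 FPKM with SR9011+TGFb (1.28, limma adjusted p = 1.74e-16) and to 318 FPKM with CLK8+TGFb (0.53). Npc1, the membrane exporter of cholesterol, rose by 0.66 with CLK8 and by 0.85 with SR9011+TGFb. It was 0.12 with SB431542+TGFb, a call that was lost with TPM and with quantile normalization.

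Sqstm1 differed from the other membrane genes with CLK8. It was 188 FPKM with vehicle and 189 FPKM with CLK8 (0.01, limma adjusted p = 0.929), while the other 6 genes of this role rose by 0.55 to 2.45. With SR9011+TGFb it rose from 170 to 420 FPKM (1.30), and with CLK8+TGFb to 224 FPKM (0.39). All 7 genes of this role were called higher with SR9011+TGFb and with CLK8+TGFb, and 6 of 7 with SB431542+TGFb, where Cd63 was not called (0.06).

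The 15 hydrolases and helper proteins were all lower with TGFb, but to very different extents. TGFb lowered them by 0.17 (Gusb) to 1.67 (Sgsh), with a median of -0.51. With TPM, Gusb was no longer called. Sgsh (ENSMUSG00000005043, mm10 chromosome 11, 119343425 to 119355536, minus strand, protein coding) encodes sulfamidase, which takes sulfate off heparan sulfate. It stood at 7.18, 6.53 and 7.66 FPKM with vehicle and at 1.43, 1.51 and 1.74 FPKM with TGFb, and the groups did not overlap (log2 -1.67, SE 0.065, limma adjusted p = 8.7e-16; -2.12 with a pseudocount of 0.1). It stood at 7.34, 8.56 and 8.42 FPKM with SB431542+TGFb, at 5.05, 5.81 and 5.44 FPKM with SR9011+TGFb and at 3.15, 2.86 and 2.85 FPKM with CLK8+TGFb. All 9 of those libraries lay above the TGFb libraries, and those with SR9011 or CLK8 lay below all vehicle libraries. Against TGFb it rose by 1.83, 1.33 and 0.63 (SE 0.065 each, limma adjusted p = 1.13e-16, 4.23e-14 and 8.39e-08). With CLK8 alone it stood at 9.39, 9.56 and 10.14 FPKM, above vehicle without overlap (0.40, limma adjusted p = 2.97e-05). With SB431542 alone it stood at 9.06, 8.51 and 8.66 FPKM and with SR9011 alone at 12.50, 12.89 and 12.04 FPKM.

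Large falls with TGFb followed in Npc2 (-0.91), the luminal carrier that hands cholesterol to NPC1, Gaa (-0.79), the acid glucosidase of glycogen, Grn (-0.78), the progranulin gene, and Naglu (-0.74), which acts on heparan sulfate as Sgsh does. Glb1 (-0.68), the beta-galactosidase read out in assays of senescence, was also lower. Gusb (-0.17) and Lipa (-0.24), the acid lipase that cleaves cholesteryl esters and triglycerides, moved least.

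Hexa (ENSMUSG00000025232, mm10 chromosome 9, 59539540 to 59565109, plus strand, protein coding) encodes the alpha subunit of beta-hexosaminidase, which degrades gangliosides. It stood at 61.02, 65.79 and 65.86 FPKM with vehicle, at 40.71, 42.65 and 41.06 FPKM with TGFb, and at 141.37, 143.87 and 144.13 FPKM with SR9011+TGFb. The SR9011+TGFb libraries lay above vehicle and TGFb without overlap, and the change against TGFb was the largest of the hydrolases (1.76, SE 0.051, limma adjusted p = 1.19e-17). It stood at 79.31, 80.05 and 83.68 FPKM with SB431542+TGFb and at 76.85, 68.66 and 72.24 FPKM with CLK8+TGFb, all above vehicle too (0.95 and 0.79 against TGFb, limma adjusted p = 1.92e-13 and 4.02e-11). With CLK8 alone it stood at 114.14, 107.78 and 113.76 FPKM (0.79 against vehicle, limma adjusted p = 2.51e-11). The libraries with SR9011 alone were the highest, at 186.38, 162.88 and 176.86 FPKM, and SB431542 alone gave 85.28, 89.90 and 94.00 FPKM.

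With the compounds, the order of the hydrolases differed from one comparison to the next. With SR9011+TGFb all 15 rose, by 0.35 (Glb1) to 1.76 (Hexa). Neu1 (1.74), a sialidase, Tpp1 (1.54), a peptidase, Gaa (1.43), Sgsh (1.33) and Gla (1.31), the alpha-galactosidase, stood next to Hexa. With SB431542+TGFb all 15 rose, by 0.23 (Gusb) to 1.83 (Sgsh), led by Sgsh and Npc2 (1.02), with Naglu next. With CLK8 alone all 15 rose, by 0.14 (Lipa) to 0.79 (Hexa). The Lipa call was lost without vehicle replicate 1 (0.11) and without CLK8 replicate 1 (0.10), and quantile normalization lost Lipa and Glb1. With CLK8+TGFb 14 rose, and Gusb was not called (-0.08, limma adjusted p = 0.237). After quantile normalization Gusb was called lower (-0.13) and Glb1 was no longer called.

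In the median, the 6 V-ATPase subunits changed less with TGFb than the hydrolases (-0.21 against -0.51), though the ranges of the 2 roles overlapped. TGFb lowered 5 of 6, by 0.15 (Atp6ap1) to 0.52 (Atp6v0a1), and Atp6v1h was not called (0.03, limma adjusted p = 0.647). After rescaling to TPM, Atp6v1a and Atp6ap1 (-0.08, limma adjusted p = 0.114) were no longer called, and quantile normalization lost Atp6v1a. Atp6v0a1 (ENSMUSG00000019302, mm10 chromosome 11, 101009452 to 101063719, plus strand, protein coding) encodes an a subunit of the membrane sector. It stood at 24.23, 23.98 and 23.29 FPKM with vehicle and at 16.06, 16.41 and 16.58 FPKM with TGFb, with no overlap (-0.52, SE 0.043, limma adjusted p = 6.29e-10). It stood at 29.09, 30.15 and 28.12 FPKM with SB431542+TGFb and at 24.35, 25.42 and 26.30 FPKM with SR9011+TGFb, all above vehicle (0.80 and 0.60 against TGFb, limma adjusted p = 2.34e-13 and 3.22e-11). With CLK8 alone it stood at 25.17, 24.27 and 26.80 FPKM, and with CLK8+TGFb at 17.85, 18.04 and 17.61 FPKM. The last lay above TGFb without overlap (0.12, limma adjusted p = 0.0306), yet the call was lost without TGFb replicate 1 (0.11), TGFb replicate 2 (0.12), CLK8+TGFb replicate 1 (0.12) or CLK8+TGFb replicate 2 (0.11), and with quantile normalization (0.05). With CLK8 alone it was not called (0.09, limma adjusted p = 0.101), and it was called without CLK8 replicate 2 (0.12). With SB431542 alone it stood at 32.28, 29.60 and 31.88 FPKM and with SR9011 alone at 28.39, 28.15 and 28.31 FPKM.

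Atp6ap1 (ENSMUSG00000019087, mm10 chromosome X, 74297097 to 74304721, plus strand, protein coding), an accessory subunit that aids assembly of the pump, ranked first among the subunits with SR9011 and CLK8. It stood at 99.15, 97.17 and 98.13 FPKM with vehicle, at 84.38, 89.44 and 92.04 FPKM with TGFb and at 183.56, 180.55 and 185.17 FPKM with SR9011+TGFb. The last lay far above both (1.04 against TGFb, SE 0.039, limma adjusted p = 5.02e-16). With CLK8 it stood at 154.02, 139.88 and 147.79 FPKM, and with CLK8+TGFb at 131.69, 127.89 and 128.32 FPKM, both above vehicle (0.58 against vehicle and 0.54 against TGFb, limma adjusted p = 7.06e-11 and 3.45e-10). With SB431542+TGFb it stood at 104.76, 105.00 and 105.56 FPKM (0.24 against TGFb, limma adjusted p = 1.28e-05). With SB431542 alone it stood at 115.83, 112.30 and 111.93 FPKM, and with SR9011 alone, the highest group, at 206.15, 194.65 and 202.98 FPKM. Across the 6 subunits the range was 0.60 to 1.04 with SR9011+TGFb, all 6 higher, and 0.12 to 0.54 with CLK8+TGFb, all 6 higher. With SB431542+TGFb it was 0.08 to 0.80, with 5 of 6 higher. With CLK8 alone 5 of 6 were higher, from 0.35 to 0.58 for those 5.

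**Figure D3:**
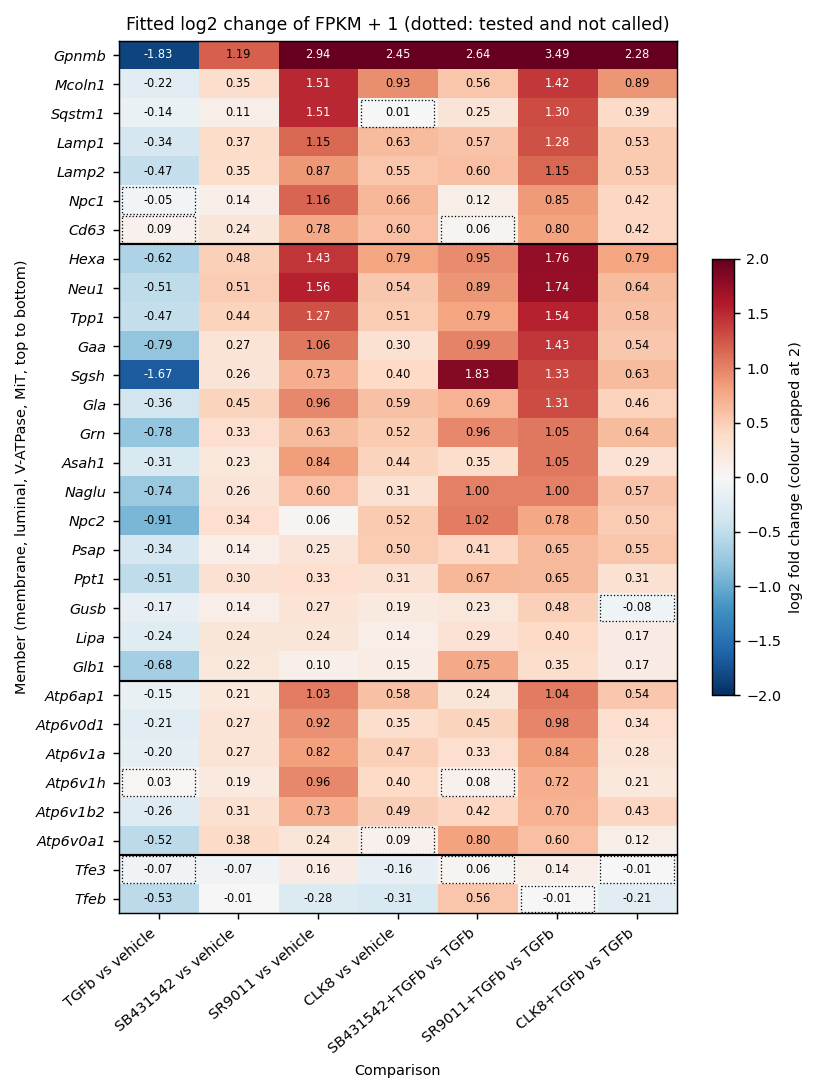
Fitted log2 change of FPKM + 1 for the 30 tested genes (rows, grouped by role) in 7 comparisons (columns); red is higher, blue lower, the colour is capped at 2 and each cell prints its value. Dotted frames mark genes that were tested and not called; cells of SB431542 and SR9011 against vehicle carry none because no test is given there, and the row of Gpnmb runs from -1.83 to 3.49.

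Among the MiT factors, Tfeb fell with TGFb and rose with SB431542+TGFb as most genes of the other roles did, but it did not rise with SR9011+TGFb and was lower with CLK8. Tfeb (ENSMUSG00000023990, mm10 chromosome 17, 47737030 to 47792419, plus strand, protein coding) stood at 12.96, 13.60 and 13.48 FPKM with vehicle and at 8.95, 8.80 and 9.07 FPKM with TGFb, with no overlap (-0.53, SE 0.055, limma adjusted p = 2.98e-08). With SB431542+TGFb it stood at 13.81, 13.30 and 13.77 FPKM, within or just above the vehicle range (0.56 against TGFb, limma adjusted p = 9.85e-09). With SR9011+TGFb it stood at 9.60, 8.16 and 8.91 FPKM, and these libraries overlapped those with TGFb (-0.01, limma adjusted p = 0.894). With CLK8 it stood at 10.91, 10.17 and 10.72 FPKM and with CLK8+TGFb at 7.76, 7.31 and 7.77 FPKM, below vehicle and below TGFb (-0.31 and -0.21, limma adjusted p = 9.73e-05 and 0.00455). Thus Tfeb was lower in the 2 comparisons with CLK8 in which 26 and 27 of the lysosomal genes were higher. With SB431542 alone it stood at 13.00, 13.93 and 12.95 FPKM and with SR9011 alone at 11.66, 10.90 and 9.90 FPKM.

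Tfe3 (ENSMUSG00000000134, mm10 chromosome X, 7762560 to 7775202, plus strand, protein coding) was the most abundant of the 3 factors per length. It stood at 36.51, 36.26 and 37.22 FPKM with vehicle and at 33.87, 33.89 and 36.78 FPKM with TGFb, which overlap (-0.07, limma adjusted p = 0.273). With CLK8 it stood at 34.07, 29.11 and 35.24 FPKM (-0.16, limma adjusted p = 0.02), a call that was lost without vehicle replicate 3 (-0.15), without CLK8 replicate 2 (-0.08) and with the compared groups fitted alone. With SR9011+TGFb it stood at 38.66, 39.75 and 37.18 FPKM (0.14 against TGFb, limma adjusted p = 0.028). This call was lost with TPM (0.05), with quantile normalization (0.09) and without TGFb replicate 1 (0.12), TGFb replicate 2 (0.12), SR9011+TGFb replicate 1 (0.14) or SR9011+TGFb replicate 2 (0.12). With SB431542+TGFb it stood at 35.55, 37.18 and 36.19 FPKM and with CLK8+TGFb at 36.20, 33.69 and 34.24 FPKM, neither of them called (0.06 and -0.01, limma adjusted p = 0.367 and 0.95). With SB431542 alone it stood at 34.86, 36.20 and 33.29 FPKM and with SR9011 alone at 42.42, 40.38 and 40.79 FPKM. Mitf (ENSMUSG00000035158, mm10 chromosome 6, 97807052 to 98021349, plus strand, protein coding) had group means of 0.19 to 0.31 FPKM. RNA levels do not show where in the cell these factors were.

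Averaged over the genes of a role, library by library, the roles differed in how far each group stood from vehicle. The hydrolase mean with TGFb was -0.63 to -0.60 on the log2 scale. The membrane mean was -0.44 to -0.41 and the V-ATPase mean -0.23 to -0.19. The membrane mean includes Gpnmb, whose fitted change with TGFb was -1.83, and the hydrolase mean includes Sgsh, at -1.67. Medians of the fitted changes with TGFb were -0.51 for hydrolases, -0.22 for membrane genes and -0.21 for the V-ATPase, so the last 2 roles were close by this measure. With SR9011+TGFb all 3 stood above vehicle in every library: 0.41 to 0.45 for hydrolases, 1.02 to 1.08 for membrane genes and 0.57 to 0.62 for the V-ATPase. With CLK8+TGFb the membrane genes (0.27 to 0.44) and the V-ATPase (0.07 to 0.14) stood above vehicle, while the hydrolases stood below it (-0.22 to -0.11). With SB431542+TGFb the hydrolases stood at 0.15 to 0.22. The MiT mean was -0.33 to -0.25 with TGFb and -0.45 to -0.36 with CLK8+TGFb. These means are descriptions without a test.

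**Figure D4:**
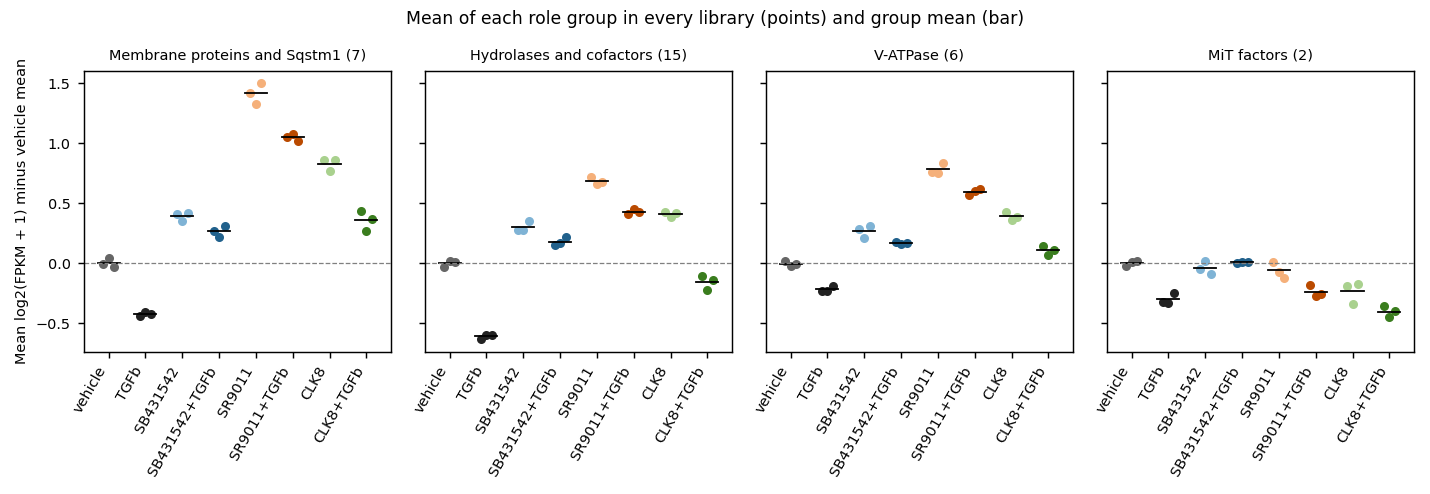
Mean log2(FPKM + 1) over the tested genes of each role, minus the vehicle mean (y axis), in each library (points) of the 8 groups (x axis), with the group mean as a bar, n = 3. With CLK8+TGFb the membrane and V-ATPase points lie above 0 and the hydrolase points below. With SR9011+TGFb all points of these 3 roles lie above 0. The membrane points include Gpnmb, which had the widest range of the set on this log2 scale.

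The effect of TGFb in the presence of a compound was compared with its effect without. For CLK8 this interaction was called for 5 of the 30 genes, 3 higher and 2 lower, where 4.58% of all genes were called higher and 3.39% lower, and the median was -0.01. Sqstm1 had the largest difference (0.39, SE 0.083, limma adjusted p = 0.00423): it was 188 FPKM with vehicle and 170 with TGFb, but 189 with CLK8 and 224 with CLK8+TGFb. Npc1 (-0.24, limma adjusted p = 0.00817) was not called after rescaling to TPM (-0.22). The other 3 calls were often lost with fewer libraries. Gaa (0.24, limma adjusted p = 0.0452) was lost in 9 of 12 fits that each left out 1 library (0.20 to 0.25, limma adjusted p = 0.0642 to 0.148). Naglu (0.26, limma adjusted p = 0.0495) was lost in 9 of 12 (0.20 to 0.28, limma adjusted p = 0.0542 to 0.173), and Gusb (-0.27, limma adjusted p = 0.0289) in 7 of 12 (-0.27 to -0.24, limma adjusted p = 0.0553 to 0.0898). Gpnmb was not called (-0.17, limma adjusted p = 0.565), and with a pseudocount of 0.1 its value was 0.52 (limma adjusted p = 0.0641) and with TPM 0.14, so its sign depends on these choices. The interactions with SB431542 and SR9011 contain comparisons treated as used in naming the set. Their values ran from -0.18 to 1.57 with SB431542 and from -0.31 to 0.72 with SR9011, with medians of 0.25 and 0.23.

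Further lysosomal genes outside the set, from lists of hydrolases, membrane proteins, pump subunits, sorting factors, regulators of the MiT factors and autophagy adaptors, were counted in the same comparisons. These lists were chosen with earlier results of these data known, so the counts are no independent check of the set. Of the 93 listed genes tested, TGFb against vehicle lowered 59 and raised 4, where 34.4% of all tested genes were lower and 20.5% higher. CLK8 raised 67 and lowered 4, where 30.3% of all were higher and 13.6% lower. Against TGFb, SB431542+TGFb raised 74 and lowered 2 (38.3% of all higher, 21.4% lower). SR9011+TGFb raised 83 and lowered 4 (36.8% of all higher, 24% lower), and CLK8+TGFb raised 66 and lowered 2 (27.7% of all higher, 13.3% lower). Per list, beside the 36.8% of all genes, SR9011+TGFb raised 21 of 23 other hydrolases, 17 of 18 membrane proteins, 11 of 12 pump subunits, 8 of 9 sorting factors, 13 of 14 regulators and 13 of 17 autophagy adaptors.

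The genes with the smallest adjusted p in SR9011+TGFb against TGFb were, among membrane proteins, Ostm1 (1.64) and Clcn7 (1.22), which together form the chloride-proton exchanger of lysosomes, and Ctns (1.55), the cystine exporter. Among the hydrolases they included Scpep1 (1.19) and Plbd2 (0.98), and among pump subunits they were Atp6v0b (1.68), Atp6ap2 (1.45) and Atp6v1g1 (1.30). Igf2r (1.05), the receptor that sorts mannose-6-phosphate tagged hydrolases, led the sorting factors with Gga2 (0.80), an adaptor in that sorting, and Gnptg (1.05), a subunit of the enzyme that makes the tag. Flcn, folliculin, which with its partner Fnip2 (1.28) acts on the Rag GTPases (Rragc, 0.93) to hold MiT factors out of the nucleus, rose from 12.2 to 39.8 FPKM (1.63). Of the autophagy list, the adaptor Optn rose by 1.23, Uvrag by 1.01 and Gabarap by 0.76. Cd44 and Sdc4, surface proteins that GPNMB is known to bind, had changes of -0.73 and -0.57, both called lower. With SR9011+TGFb these changes stand beside the lower stellate marker sum given above, made mostly by Col1a1, Col1a2, Dcn and Vim. The part of that lower sum in the lysosomal results was not tested.

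Of the 31 genes, 10 overlap another measured gene, and the sources used here do not say whether the libraries keep strand. Sgsh overlaps Card14, which did not exceed 0.1 FPKM. Other pairs are Lamp1 with Grtp1, Npc1 with Rmc1, Sqstm1 with Mrnip, Hexa with Tmem202 and Grn with Fam171a2. The rest are Ppt1 with Cap1, Atp6v1b2 with Slc18a1, Atp6v1h with Rgs20 and Glb1 with Tmppe. Reads in the shared stretches could be counted for either gene. With vehicle, mean levels were 96.4 FPKM for Cap1 and 23.2 FPKM for Ppt1, and the other partners stood below their members. Rmc1 came closest of these, at 8.96 FPKM with vehicle and 13.6 with SR9011, where Npc1 stood at 11.7 and 27.3 FPKM.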

How the data were processed

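RNA-seq of 24 libraries in 8 groups of 3 was used as FPKM, deposited by the authors in 1 table. The submitters' processing notes name mm10, HISAT2 2.0.4, Bowtie2 2.2.5, RSEM and DESeq2, with no roles. Per the labels' protocols, either of 2 extraction kits was used, chosen by RNA yield; the sources used here do not say for which sample.

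The table holds 16620 lines and 16612 gene identifiers. The 16 lines on repeated identifiers were left out, leaving 16604 genes. Symbols and positions are from GENCODE M21, with 43 identifiers unmatched. FPKM summed to 503920 to 610024 per library, with 10780 to 11000 genes at 1 FPKM or more in each. Without read totals, value steps of 35 low genes gave relative depths of 0.92 to 1.07.

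The 11297 genes that reached 1 FPKM in 3 or more libraries were tested by limma 3.58.1 (R 4.3.3) on log2(FPKM + 1). A single model held every group, with trend and robust options; its residual degrees of freedom were 16, and 22.6 in the median once moderated. P values were 2-sided, Benjamini-Hochberg adjusted per comparison, threshold 0.05. The median standard error was 0.0639 between groups and 0.0904 for an interaction. The fit was tested on simulated data. Tables used Python 3.11.15, pandas 2.3.3 and numpy 2.4.6, and figures matplotlib 3.10.9.

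The genes and lists were chosen with earlier results of these data known. Values of every library are given for Gpnmb, the MiT factors and, per other role, the gene with the largest absolute change in SR9011+TGFb against TGFb and in TGFb against vehicle. From each further list, up to 3 genes with the smallest adjusted p in SR9011+TGFb against TGFb were named; 1 such gene is not reported here. Stellate, macrophage, osteoclast, melanocyte, hepatocyte, endothelial and cholangiocyte markers were summed. Hepatocyte and endothelial lists summed to at most 0.22 and 0.74 FPKM, and the cholangiocyte list to 2.51 to 11.4 FPKM.

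Alternatives were a pseudocount of 0.1, no filter, TPM, quantile normalization, a fit of the compared groups alone, a block for the replicate number, and single libraries left out in turn. Nothing in the labels ties a replicate number to a shared batch. Among 28 pairs of groups, 2 had residual correlations over 0.1 for each of their 3 same-numbered sample pairs, namely CLK8+TGFb set against SB431542+TGFb (0.275, 0.137 and 0.129), and the groups with and without TGFb that had SB431542 (0.415, 0.208 and 0.117). Neither pair was compared directly, though the second enters the interaction with SB431542. The main fit has no block.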

Additional observations from a re-analysis of the deposited data

Results flagged for a closer look

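The interaction term of the limma model, which compares the effect of TGFb with and without CLK8, was called for a few lysosomal genes. Its median over the 30 genes was -0.01. With CLK8 it was called higher for 3 of 30 genes, Sqstm1 (0.39), Naglu (0.26) and Gaa (0.24), and lower for 2, Npc1 (-0.24) and Gusb (-0.27), where 4.58% of all tested genes were higher and 3.39% lower. The calls of Naglu and Gaa were each lost in 9 of 12 fits without 1 library, and that of Gusb in 7 of 12. The call of Npc1 was lost after rescaling to TPM. With SB431542, 18 genes were past the same threshold upward and 0 downward (21.5% and 12.8% of all genes), and with SR9011 17 and 2 (16.6% and 15.3% of all genes). Nothing is read from these counts for SB431542 and SR9011, since results of these compounds are treated as used in naming the genes.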

How the results depend on the processing

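No called value changed sign. The interaction of Gpnmb with CLK8, which was not called, was -0.17, and it was 0.52 with a pseudocount of 0.1 and 0.14 with TPM. Of 70 pairs of a gene given library by library and a comparison, 62 kept their side of the threshold, and where called their direction, under every alternative run. Small counts moved. Genes called higher with TGFb against vehicle went from 0 to 1 with no filter, where Mitf is tested too and the genes number 31. That count also went from 0 to 1 with TPM and with quantile normalization, where the gene was Cd63. Genes called lower went from 2 to 1 for CLK8 against vehicle with the compared groups alone, from 0 to 1 for SB431542+TGFb against TGFb with no filter, and from 1 to 2 for CLK8+TGFb against TGFb with quantile normalization. For the interaction with SB431542, the lower count went from 0 to 1 with TPM, quantile normalization and the groups alone. For the interaction with CLK8, the higher count went from 3 to 1 with no filter and the lower from 2 to 0 with TPM. Leaving out single libraries gave 1 to 2 lower genes for CLK8 against vehicle, 1 to 3 lower for the interaction with SR9011, and 1 to 3 higher and 1 to 2 lower for that with CLK8. Without single libraries the larger counts were 25 to 26 lower with TGFb, and 25 to 27 (CLK8), 27 (SB431542+TGFb), 28 to 29 (SR9011+TGFb) and 26 to 27 (CLK8+TGFb) higher. Under the other alternatives they were 22 to 26, 24 to 26, 26 to 27, 28 to 29 and 25 to 27 in the same order.

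With the replicate block, 26 genes were lower with TGFb, and 26, 27, 29 and 27 were higher in those comparisons, as without it. The block gave 19 in place of 18 higher genes for the interaction with SB431542. FPKM with no read totals limits what can be said of genes near 1 FPKM, such as Gpnmb and Sgsh with TGFb. Causes of these differences were not tested.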
